A study of Homo sapiens with 6 samples.

Results

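MTR, MTRR, MMACHC, MMADHC, AHCY, AHCYL1 and AHCYL2, 7 genes of homocysteine remethylation and S-adenosylhomocysteine (SAH) hydrolysis, were followed in A375 cells, an established human melanoma line, after 24 hours with hMGL. hMGL is an engineered human enzyme that degrades methionine. The genes were chosen by name, for their roles in the pathway, out of 58523 genes with at least 1 transcript in the deposited tables. All 7 were among the 22580 genes with enough counts to be tested. The 3 control libraries came from separately grown untreated dishes, and the 3 hMGL libraries (numbered 4 to 6) from dishes exposed to the enzyme for 24 hours. Both groups carried the same genotype and grew in the same serum-supplemented medium. The labels give no enzyme dose and no vehicle or inactive-enzyme control, and all libraries stem from 1 cell line, so the comparison describes this line only.

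Methionine that has given away its methyl group returns through a short cycle. Transfer of the methyl group from S-adenosylmethionine leaves SAH, which AHCY, the SAH hydrolase, splits reversibly into homocysteine and adenosine. MTR, the cobalamin-dependent methionine synthase, then rebuilds methionine from homocysteine with a methyl group from methyl-folate, and MTRR, its reductase, rescues the enzyme when its cobalamin cofactor is oxidised. MMACHC processes incoming cobalamin, and MMADHC directs it to MTR in the cytosol or to methylmalonyl-CoA mutase in mitochondria. AHCYL1, also called IRBIT, and AHCYL2, also called long-IRBIT, resemble AHCY in sequence but are known as regulators of IP3 receptors and ion transporters, not as SAH hydrolases.

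The libraries held 50760266 to 59954677 estimated counts, of which 94.9% to 95.1% fell on transcripts that could be matched to a gene. Summed levels of 10 melanocytic and neural crest markers were 555.4 to 624.8 CPM (counts scaled to library size) in the controls and 447.1 to 462.1 CPM with hMGL, although the pigment-enzyme genes TYR, DCT and TYRP1 were under 1 CPM. Of the 9 markers tested, SOX10, S100B and S100A1 fell, PMEL, DCT, TYRP1 and TFAP2A rose, and MITF and MLANA did not pass. Summed immune markers were 6.77 to 7.96 CPM in controls and 2.63 to 3.24 CPM with hMGL, most of it LYZ, with PTPRC, CD3E and CD14 under 1 CPM. Fibroblast markers summed to 8.03 to 8.25 CPM in controls and 3.09 to 3.44 CPM with hMGL, with COL1A2 and DCN under 1 CPM, and endothelial markers to 6.53 to 7.11 and 7.35 to 7.94 CPM, with CDH5 under 1 CPM. Epithelial markers summed to 374.4 to 396.5 CPM in controls and 355.3 to 363.2 CPM with hMGL. Most of it was KRT18 (means of 344.7 and 326.5 CPM), with EPCAM, CDH1 and KRT5 under 1 CPM. The part of these marker differences in the results below was not tested. Between 16.1% and 22.1% of all TPM (counts scaled to transcript length and library size) were assigned to RN7SL1, a small cytoplasmic RNA, with 16.1% to 19.4% in controls and 18.5% to 22.1% with hMGL. Because the TPM values of a library share 1 fixed total, groups were compared mainly on CPM with TMM scaling, which sets library size from the bulk of the genes.

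After 24 hours of hMGL, 1 of the 7 genes rose, 5 fell and 1 did not pass the test. MTRR rose 2.07-fold. MTR fell 1.96-fold, AHCY 1.81-fold, AHCYL1 1.57-fold and MMADHC 1.3-fold. The place of MTR in this order depended on how transcript length was handled. With effective length as an offset the log2 fold changes were −0.43 for MTR, −0.81 for AHCY, −0.69 for AHCYL1 and −0.38 for MMADHC. The fall of MMACHC was small and depended on the analysis, and AHCYL2 did not pass. The test was edgeR's quasi-likelihood F test with Benjamini-Hochberg adjustment over all genes tested, called at an adjusted p under 0.05. By the same rule 69.4% of all genes were called, 34.9% as higher and 34.5% as lower, so that a call alone does not set a gene apart in these libraries. Groups did not overlap for 6 of the 7 genes, against 73.3% of all genes tested. The median log2 fold change of the 7 was −0.38, beside −0.02 over all genes tested, and the median size of a change over all genes was 0.59 on the log2 scale. Bulk libraries cannot tell fewer cells of a kind from less RNA per cell.

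**Figure D1:**
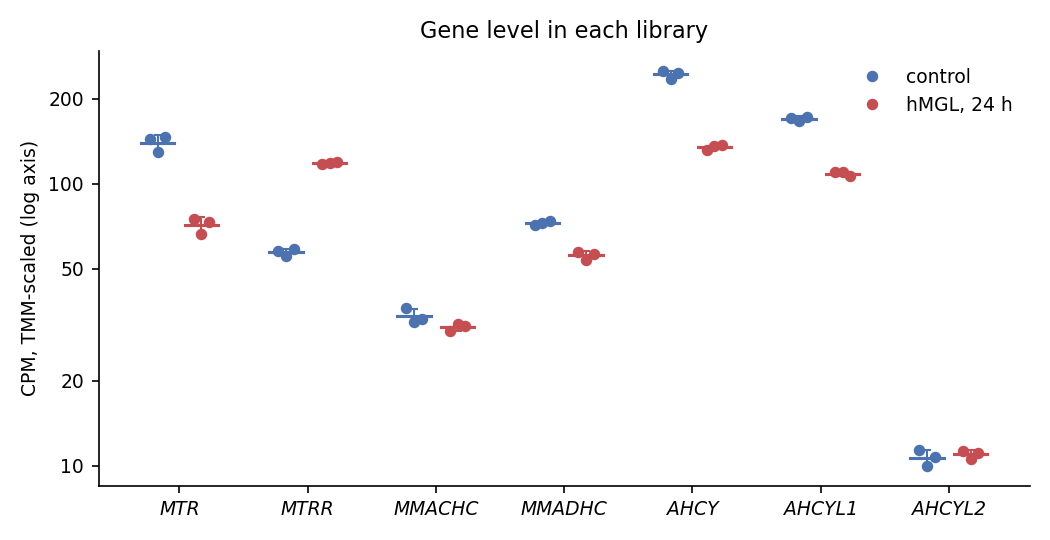
CPM (TMM-scaled, log axis) of each gene in the 3 control and 3 hMGL libraries. Points are libraries, horizontal lines are group means and bars are SD. MTRR is higher in all 3 hMGL libraries (117.9 to 119.8 CPM) than in any control (55.5 to 58.7 CPM), while the groups of AHCYL2 overlap.

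MTR (ENSG00000116984, chromosome 1, 236795281 to 236903981, plus strand of GRCh38) was measured at 143.8, 129.9 and 145.9 CPM in the control libraries and at 75.3, 66.3 and 72.9 CPM in the hMGL libraries. Every hMGL library lay far under the lowest control. The group means were 139.9 ± 8.70 and 71.5 ± 4.65 CPM (SD, n = 3 each), a log2 fold change of −0.97 ± 0.060 (SE) and an adjusted p of 9.89e-07 by edgeR. The size of this fall depended on how transcript length was handled, since the isoforms of MTR differ widely in length. The mean effective length of the MTR transcripts counted went from 5553 ± 169.9 to 3841 ± 164.0 nucleotides (SD, n = 3 each). With that length as an offset in edgeR the log2 fold change was −0.43, and with limma on log2(TPM + 1) it was −0.31; both kept the call. The summed TPM of MTR, a level per length, was 19.3, 16.8 and 16.8 in controls and 15.2, 13.2 and 13.8 with hMGL, and these groups did not overlap either.

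MTRR (ENSG00000124275, chromosome 5, 7851186 to 7906025, plus strand) went the other way. Its level was 57.5, 55.5 and 58.7 CPM in controls and 117.9, 118.5 and 119.8 CPM with hMGL. The hMGL libraries lay close together, all far above the highest control. It rose with a log2 fold change of 1.05 ± 0.033 (SE; adjusted p = 8.09e-15, edgeR), and it was 0.95 with the effective length offset and 1.04 with limma on log2(TPM + 1). The reductase thus rose while the synthase it serves fell, and the TPM ratio of MTR to MTRR went from 0.34 to 0.13. As a log2 ratio within each library this was −1.48, −1.66 and −1.59 in controls and −2.92, −3.02 and −2.92 with hMGL. The difference of −1.38 separated the groups completely; the exact two-sided permutation test gave p = 0.1, the smallest that 3 against 3 libraries allow, and 0.1 after Benjamini-Hochberg adjustment over the 5 pairs of genes compared. FASTKD3, which lies on the opposite strand within the bounds of MTRR, was at 17.8 CPM in controls and 25.0 CPM with hMGL. Whether the counting used strand is not given in the sources used here. Reads from transcript sequence that genes of opposite strands share therefore cannot be told apart, and the extent of such sequence was not tested.

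MMACHC (ENSG00000132763, chromosome 1, 45500053 to 45513382, plus strand), the first processing step of cobalamin in the cytosol, was measured at 36.2, 32.3 and 33.3 CPM in controls and at 30.02, 31.8 and 31.4 CPM with hMGL. The lowest control exceeded the highest hMGL library by less than 1 CPM. edgeR gave a log2 fold change of −0.13 ± 0.045 (SE) with an adjusted p of 0.0184. This call was lost with DESeq2 (−0.10, adjusted p = 0.209), with the effective length offset (−0.13, adjusted p = 0.183) and with limma on log2(TPM + 1) (−0.02, adjusted p = 0.859), and in edgeR without control library 1 (adjusted p = 0.156), hMGL library 4 (0.205), hMGL library 5 (0.0544) or hMGL library 6 (0.0681). PRDX1, a peroxiredoxin gene that overlaps MMACHC on the opposite strand, was at 356.6 CPM in controls and 191.2 CPM with hMGL. Its part in the MMACHC value was not tested.

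MMADHC (ENSG00000168288, chromosome 2, 149569634 to 149587816, minus strand), which hands cobalamin on to its 2 enzymes, was at 71.4, 72.8 and 73.6 CPM in controls and at 57.5, 53.9 and 56.4 CPM with hMGL. The groups were well separated, with a log2 fold change of −0.38 ± 0.036 (SE, adjusted p = 4.05e-08, edgeR), 1.3-fold lower with hMGL. A test against a minimum change of 1.5-fold did not call it. MMUT, the mitochondrial mutase that receives the other share of this cobalamin, fell from 16.5 ± 1.16 to 12.6 ± 0.976 CPM (SD, n = 3 each; log2 fold change −0.39, adjusted p = 9.83e-05, edgeR). The log2 TPM ratio of MMACHC to MMADHC was −3.03 ± 0.047 in controls and −2.78 ± 0.204 with hMGL (SD, n = 3 each; exact permutation p = 0.1, adjusted p = 0.1).

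AHCY (ENSG00000101444, chromosome 20, 34280268 to 34311802, minus strand), the hydrolase that clears SAH, was at 251.0, 236.2 and 246.5 CPM in controls and at 131.6, 135.7 and 137.7 CPM with hMGL. All 3 hMGL libraries lay far under the lowest control. The log2 fold change was −0.86 ± 0.032 (SE, adjusted p = 6.78e-14, edgeR), 1.81-fold lower with hMGL. The 6 processed pseudogenes of AHCY that the tables list summed to 0.12 CPM in controls and 0.20 CPM with hMGL, so few counts were assigned to these near-copies.

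AHCYL1 (ENSG00000168710, chromosome 1, 109984686 to 110023741, plus strand) was at 171.3, 166.4 and 173.1 CPM in controls and at 109.6, 109.8 and 106.7 CPM with hMGL. It fell 1.57-fold without overlap between groups (log2 fold change −0.65 ± 0.030, SE, adjusted p = 1.74e-12, edgeR). AHCYL2 (ENSG00000158467, chromosome 7, 129225023 to 129430211, plus strand), its close relative, was at 11.4, 9.98 and 10.7 CPM in controls and at 11.3, 10.6 and 11.1 CPM with hMGL. These groups overlapped. Its log2 fold change was 0.04 ± 0.070 (SE, adjusted p = 0.632, edgeR), with a 95% confidence interval of −0.11 to 0.19. The log2 TPM ratio of AHCYL2 to AHCYL1 was −3.70 ± 0.048 in controls and −3.05 ± 0.096 with hMGL (SD, n = 3 each), and that of AHCYL2 to AHCY was −4.51 ± 0.037 and −3.74 ± 0.073. The ratio of AHCYL1 to AHCY moved less, from −0.81 ± 0.016 to −0.69 ± 0.024. In all 3 ratios the groups did not overlap, and each exact permutation test gave p = 0.1 (adjusted p = 0.1 over the 5 pairs).

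**Figure D2:**
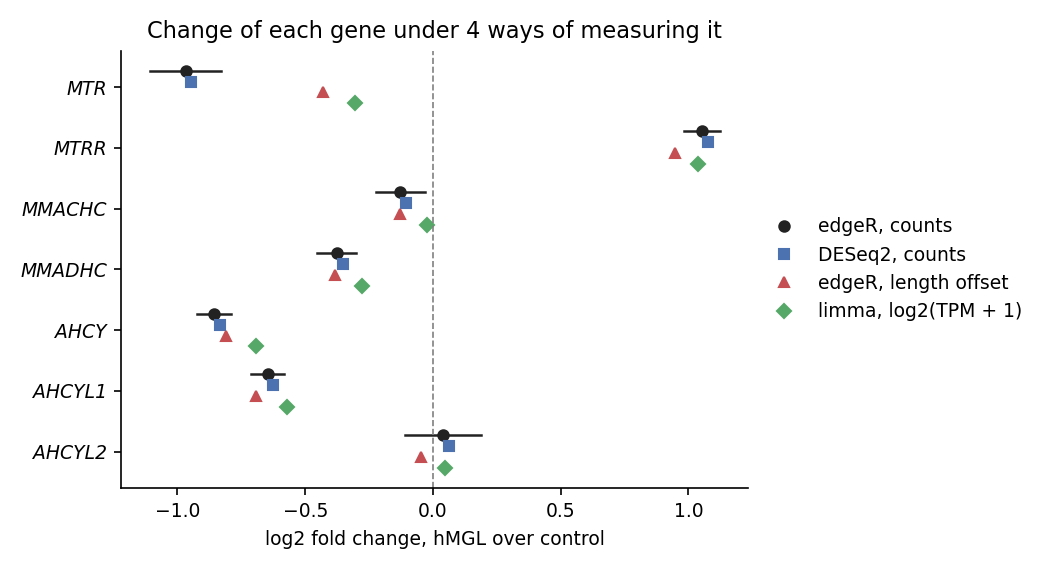
Log2 fold change (hMGL over control) of the 7 genes by edgeR on estimated counts, DESeq2 on the same counts, edgeR with an effective length offset and limma on log2(TPM + 1). Black lines are the 95% confidence intervals of the edgeR values; the 4 values of MTR spread from −0.97 to −0.31, while those of MTRR lie between 0.95 and 1.07.

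Ordered by TPM, which allows for transcript length, the control cells held most AHCY (71.2 ± 4.47), then MMADHC (64.3 ± 3.44), MTRR (52.5 ± 1.74), AHCYL1 (40.6 ± 2.16), MTR (17.6 ± 1.42), MMACHC (7.87 ± 0.245) and AHCYL2 (3.13 ± 0.266; SD, n = 3 for each). AHCY and MMADHC overlapped across control libraries, and no other neighbours in this order did. With hMGL the first place went to MTRR at 109.0 ± 5.82 TPM, followed by MMADHC (53.0 ± 4.85), AHCY (43.7 ± 3.10), AHCYL1 (26.99 ± 1.66), MTR (14.1 ± 1.04), MMACHC (7.76 ± 1.01) and AHCYL2 (3.27 ± 0.388), with no overlap between neighbours. Summed over its isoforms, MTRR was therefore at a higher TPM than every other gene of the set in each hMGL library. It was under AHCY and MMADHC in each control. The mean effective length with hMGL was 823 nucleotides for MTRR and 2338 for AHCY. By CPM, AHCY stayed above MTRR in each hMGL library (131.6 to 137.7 against 117.9 to 119.8 CPM). MTRR-202, the main isoform that codes for the reductase, was at 19.95 TPM with hMGL, under AHCY-201 (35.5 TPM) and MMADHC-201 (51.6 TPM).

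The files list 61 transcripts of the 7 genes, and 39 had enough counts to be tested one by one. At this level 10 rose and 8 fell, where 32.7% of all 83015 transcripts tested were called, 17.5% as higher and 15.2% as lower. Isoforms that reached a mean of 10% of their gene's TPM in either group are named below; they number 18, of which 6 rose, 5 fell and 7 did not pass. The tool that made the tables, kallisto, divides reads among isoforms that share sequence, so an isoform value is an estimate. Transcript names and structures come from GENCODE release 29, and 52 of the 61 have the same length there as in the files. In addition, 41503 of the 244939 listed transcripts had no match in that release and were not assigned to any gene, and isoforms of these 7 genes may be among them.

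The isoforms of MTR did not move together. MTR-202, which holds the 3795 bases that code for the full-length enzyme and a long 3′ untranslated region (10547 nucleotides in all), was at 6.77, 6.25 and 6.25 TPM in controls and at 2.22, 1.21 and 1.49 TPM with hMGL. The highest hMGL value was well under the lowest control value. Its log2 fold change was −2.05 ± 0.18 (SE, adjusted p = 0.000562, edgeR over all transcripts tested). MTR-201 (5234 nucleotides), which begins at base 1258 of that coding sequence and ends 3563 bases earlier, was at 4.501, 4.17 and 4.13 TPM in controls and at 5.40, 5.12 and 5.14 TPM with hMGL. Its groups did not overlap, and it passed as higher with hMGL (log2 fold change 0.23 ± 0.06, SE; adjusted p = 0.0377, edgeR), a call that was lost when any control library, hMGL library 5 or hMGL library 6 was left out (adjusted p 0.0753 to 0.127) and with limma on log2(TPM + 1) (adjusted p = 0.0691). MTR-203, a noncoding processed transcript of 1972 nucleotides from the 5′ part, was at 7.34, 5.52 and 5.85 TPM in controls and at 7.21, 6.55 and 6.73 TPM with hMGL, and did not pass (log2 fold change 0.05, 95% confidence interval −0.23 to 0.34, adjusted p = 0.763, edgeR). Of the 10529 annotated bases of MTR-202, 3938 lie in neither MTR-201 nor MTR-203. Most of them are the 3563 bases beyond the end of MTR-201. Reads from the bases that these isoforms share are divided by estimate. Whether full-length coding transcripts fell, or only transcripts with that 3′ extension, was not tested.

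**Figure D3:**
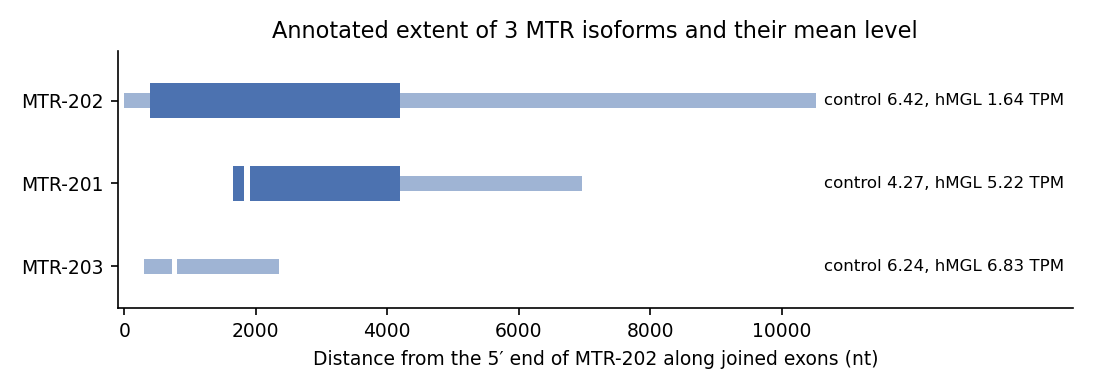
GENCODE 29 extent of 3 MTR isoforms, drawn along the joined exons of MTR-202 (x axis, nucleotides from its 5′ end); tall boxes are coding, low boxes are untranslated or noncoding, and gaps are stretches an isoform lacks. Mean TPM of each isoform (n = 3 per group) stands at the right: MTR-202, which reaches furthest in the 3′ direction, is at 6.42 in controls and 1.64 with hMGL.

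As a share of the TPM of MTR, MTR-202 took 36.5% in controls and 11.5% with hMGL, MTR-201 took 24.3% and 37.2%, and MTR-203 took 35.2% and 48.6%. None of these shares overlapped between the groups (exact two-sided permutation test, p = 0.1 for each, the smallest possible). The difference in movement between isoforms was tested across all transcripts. edgeR's diffSpliceDGE, which compares each isoform with the other isoforms of its gene, called MTR-202 (adjusted p = 0.00198) and MTR-201 (adjusted p = 0.00509) but not MTR-203 (adjusted p = 0.103), where 3.28% of all transcripts were called. With no filter on low counts it did not call MTR-201 (adjusted p = 0.0521), and with the stricter filter it called MTR-203 too (adjusted p = 0.043). limma on the log2 odds of each isoform against the rest of its gene called all 3, with adjusted p-values of 0.0023, 0.00142 and 0.00381, where 12.5% of all transcripts were called. By gene, diffSpliceDGE called MTR (adjusted p = 4.64e-08), AHCY (adjusted p = 0.000559) and MTRR (adjusted p = 0.0141), where 34.4% of all genes tested were called, and not the other 4. For AHCY, 0 isoforms were called by either usage test. On simulated data diffSpliceDGE called 248 unchanged isoforms and limma on log2 odds called 2, so a call by diffSpliceDGE alone is weak. Both recovered few true shifts there: 0%, 0% and 14.1% for diffSpliceDGE and 0%, 0% and 4.69% for limma, at 1.5-, 2- and 4-fold. The edgeR transcript fit recovered 0%, 1.69% and 7.32%. A missing isoform call therefore says little. Only 64 to 69 isoforms per fold were changed in the usage simulation, so its rates may not carry over to these libraries.

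The last 30 bases of MTR-201 and MTR-202 are shown because the isoforms part at their 3′ ends, with the polyadenylation hexamer in capitals (AATAAA, or ATTAAA where no AATAAA lies within the last 50 bases).
MTR-201, 3′ end (chr1:236900389-236900418, plus strand, GRCh38): atacAATAAAactatgctattaaaaaaaaa
MTR-202, 3′ end (chr1:236903952-236903981, plus strand, GRCh38): ataccattaATTAAAaatattttaacctga
The hexamer AATAAA starts 26 bases before the annotated end of MTR-201, and ATTAAA starts 21 bases before that of MTR-202. The 3563 bases of MTR-202 beyond the end of MTR-201 make up 33.8% of its length in GENCODE 29. In that release both MTR-201 and MTR-203 lie wholly within exons of MTR-202. The remaining isoforms were minor: MTR-204 went from 0.471 to 0.276 TPM (adjusted p = 0.00776) and MTR-205 from 0.228 to 0.0971 TPM (adjusted p = 0.0707, edgeR), and the lengths of both in the files (7293 and 4157 nucleotides) differ from GENCODE 29, so their ends in the authors' index are not known here. The same limit holds for MTR-202, with 10547 nucleotides in the files and 10529 in GENCODE 29: its printed end, its hexamer and its 3563-base extension are those of GENCODE 29.

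**Figure D4:**
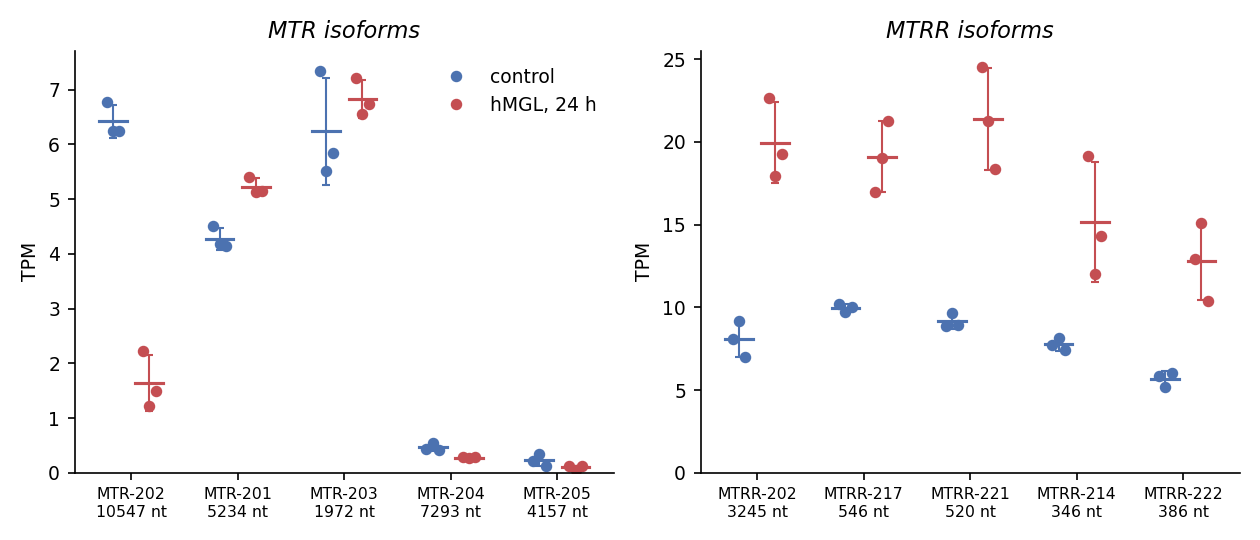
TPM of the 5 MTR isoforms and of the 5 MTRR isoforms with at least 10% of their gene's TPM, by library; lines are means, bars are SD and lengths in nucleotides are those in the files. MTR-202 is the MTR isoform whose groups lie furthest apart, whereas all 5 MTRR isoforms are higher in every hMGL library than in any control.

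Of the 25 listed isoforms of MTRR 16 were tested, 9 rose and 0 fell at an adjusted p under 0.05 by edgeR. By that rule 17.5% of all transcripts tested were called as higher and 15.2% as lower. At an unadjusted p under 0.05 by edgeR, and at an adjusted p under 0.05 by DESeq2, 0 were lower as well. MTRR-202, which codes for the reductase, went from 8.09 ± 1.08 to 19.95 ± 2.44 TPM (SD, n = 3 each; log2 fold change 1.23 ± 0.08, SE, adjusted p = 0.000123, edgeR). It held 53.8% of the estimated counts of the gene in controls, but only 15.4% of its TPM in controls and 18.3% with hMGL. The short coding fragment MTRR-221, the intron-retaining MTRR-214 and MTRR-222 and the nonsense-mediated decay candidate MTRR-217 rose by log2 fold changes of 1.16, 0.87, 1.08 and 0.87. MTRR-214 missed the threshold without control library 1 or 2. The shares of these 5 isoforms overlapped between groups. MTRR-201, which also codes for the reductase (2175 coding bases against 2094 in MTRR-202), averaged 0.503 TPM in controls and 0.627 TPM with hMGL and did not pass. All isoforms of MTRR annotated as protein-coding summed to 18.3 ± 1.09 TPM in controls and 42.8 ± 4.72 with hMGL, and those annotated for nonsense-mediated decay to 13.2 ± 0.432 and 27.2 ± 1.84 (SD, n = 3 each). The latter held 25.1% of the gene's TPM in both groups. MTRR-223, a decay candidate under 1 TPM on average in each group, was the MTRR isoform that diffSpliceDGE called (adjusted p = 0.00548). limma on log2 odds did not call it (adjusted p = 0.058) and called MTRR-212 (adjusted p = 0.0295) and MTRR-218 (adjusted p = 0.0391), so the usage tests differ on MTRR; these 3 isoforms were singled out after their values were seen.

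AHCY came mostly from AHCY-201, the coding isoform of the hydrolase, which was at 64.4, 60.9 and 56.0 TPM in controls and at 37.9, 34.6 and 34.0 TPM with hMGL (log2 fold change −0.83 ± 0.03, SE, adjusted p = 2.1e-05, edgeR). Its share of the gene's TPM was 84.9% in controls and 81.4% with hMGL, without overlap (exact permutation p = 0.1), but its share of estimated counts was 91.2% and 91.0%. The intron-retaining AHCY-204 and AHCY-206 fell with it (log2 fold changes −1.01 and −1.13). The noncoding AHCY-202 and AHCY-203 did not pass, at 3.44 and 3.10 TPM and at 2.14 and 2.45 TPM in controls and hMGL.

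AHCYL1 has 2 main coding isoforms with different amino ends, and both fell. AHCYL1-202, the longer protein, went from 24.0 ± 1.85 to 16.98 ± 1.55 TPM (log2 fold change −0.56, adjusted p = 4.02e-05, edgeR), and AHCYL1-201 from 11.1 ± 0.394 to 6.36 ± 0.84 TPM (SD, n = 3 each; log2 fold change −0.87, adjusted p = 0.00372, edgeR). Their shares overlapped between groups, at 59.0% and 62.9% for AHCYL1-202 and at 27.5% and 23.7% for AHCYL1-201. The short noncoding AHCYL1-205 did not pass (4.43 and 2.90 TPM, adjusted p = 0.193). The coding sequence of AHCYL1-202 carries 141 bases, or 47 codons, ahead of the start codon it shares with AHCYL1-201, after which the 1449 coding bases are the same. These 141 bases are shown because the amino end of AHCYL1 is the region that sets it apart from AHCY; the shared start codon is in capitals.
AHCYL1-202, start of the coding sequence: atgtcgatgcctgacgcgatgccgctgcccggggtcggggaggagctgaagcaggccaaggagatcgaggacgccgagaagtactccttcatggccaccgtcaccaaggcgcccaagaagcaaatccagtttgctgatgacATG

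The remaining genes had 1 to 3 main isoforms each. MMADHC-201, with 98.0% of the gene's TPM in controls, was at 63.5, 66.5 and 59.2 TPM in controls and at 57.2, 47.9 and 49.6 TPM with hMGL (log2 fold change −0.36, adjusted p = 0.0015, edgeR). MMACHC-201 (3.30 and 3.27 TPM) and MMACHC-203 (3.97 and 3.70 TPM) did not pass, nor did AHCYL2-201 (0.337 and 0.298 TPM), AHCYL2-202 (0.681 and 0.857 TPM) or AHCYL2-205 (1.77 and 1.90 TPM), with control before hMGL in each pair and adjusted p-values of 0.323 to 0.847 by edgeR. The confidence intervals of AHCYL2-201 (−1.57 to 1.02) and AHCYL2-202 (−0.23 to 0.78) on the log2 scale leave room for sizeable changes at these low levels.

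The promoters were searched because MMACHC is known as a target of HCFC1 acting with ZNF143 and THAP11, and because ATF4 and MYC are known regulators of amino acid and one-carbon genes. RefSeq windows from 250 bases before to 50 after a start site (GRCh38.p14) were held for 6 of the 7 genes, 16 windows in all; MTRR was not in the table. On either strand, TGATGNAA, an element bound by ATF4 with C/EBP partners, occurred at AHCYL2 only (4.46% of all 27305 genes in the table). CACGTG, the E-box of MYC and related factors, occurred at none of the 6 (8.77% of all genes). ACTACAA, a core of the ZNF143 and THAP11 element, occurred at AHCY and AHCYL2 (3.43% of all genes). The wider form, ACTAC and TCCCA with any 3 bases between them, whose letters were chosen after the promoters had been seen and which overlaps ACTACAA at AHCY, occurred at MTR, MMACHC and AHCY (2.02% of all genes, 1.67% of all 35116 windows). The 3 matches are printed with the element in capitals, on the strand of the gene.
MTR (chr1:236795142-236795171, plus strand): gggagcgggACTACATCTCCCAgagagccc
MMACHC (chr1:45500168-45500197, plus strand): aggaaacgaACTACGCATCCCAagatgcat
AHCY (chr20:34303025-34303054, minus strand): tggccgtggACTACAAGTCCCAgcatgccc
The element began 130 bases before a start site of MTR, outside its GENCODE 29 isoforms, 123 bases before one of MMACHC, within an exon of MMACHC-201, and 55 bases before one of AHCY, in an intron of AHCY-201. The TGATGNAA and ACTACAA matches at AHCYL2 belonged to start sites at 129368380 and 129388058. Both matches lay in introns of AHCYL2-201 and AHCYL2-202, which begin far upstream, at 129225023 and 129225050. The exons that held the TGATGNAA match were those of AHCYL2-203 (0.0347 TPM in controls and 0.0105 TPM with hMGL) and AHCYL2-208 (0 TPM in both groups). A match describes letters and shows no binding.

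**Figure D5:**
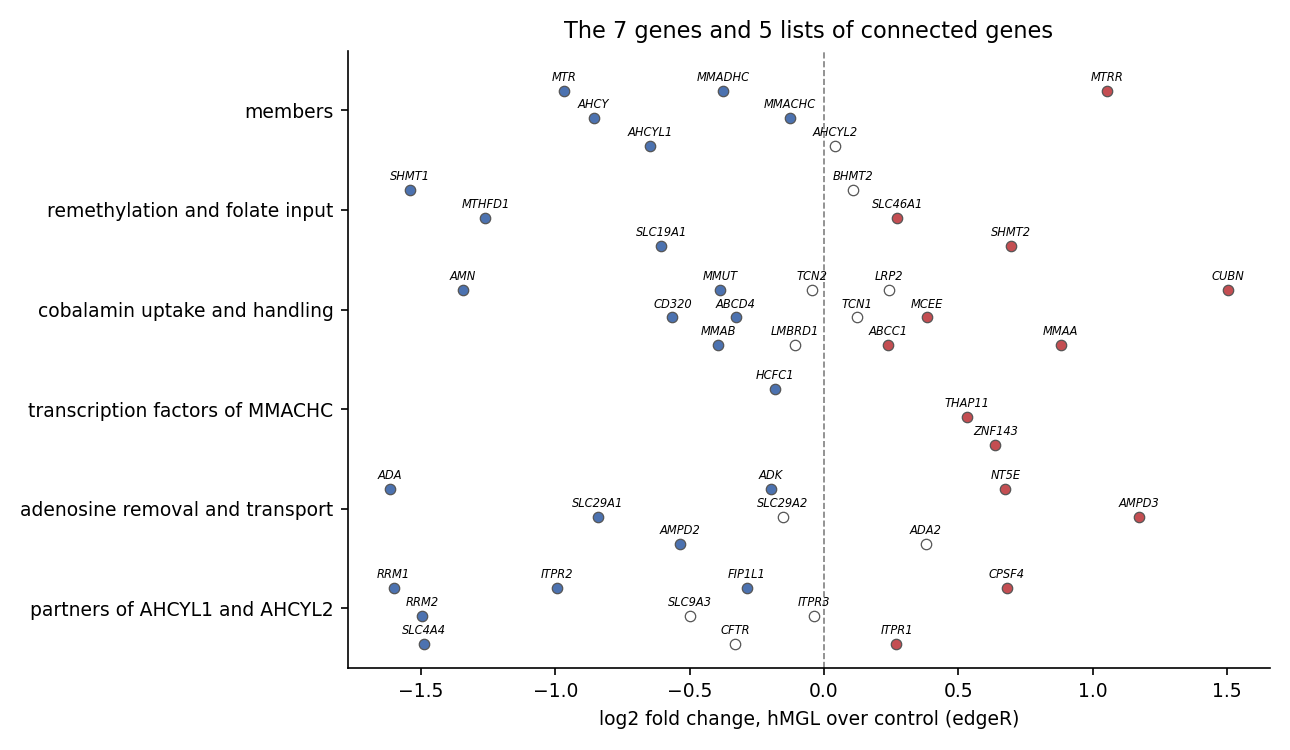
Log2 fold change (hMGL over control, edgeR) of the 7 genes and of 40 tested genes in 5 connected lists; filled points passed the test at an adjusted p under 0.05 (red higher, blue lower with hMGL) and open points did not. Vertical offsets within a row only separate the names. Of the listed genes drawn, 12 lie filled to the right of 0 and 18 filled to the left.

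The genes around the cycle were taken as 5 lists of 45 genes by function, 42 of them tested. Of these, 13 rose, 19 fell and 10 did not pass, with a median log2 fold change of −0.17, where 69.4% of all genes were called (34.9% higher, 34.5% lower). The counts below are descriptions of these genes and set no list apart. Among 8 tested genes of methyl-folate supply and remethylation, 3 rose and 4 fell (background 69.4% called). The mitochondrial serine hydroxymethyltransferase SHMT2 rose (log2 fold change 0.70) while its cytosolic counterpart SHMT1 fell (−1.54). SLC19A1, the reduced folate carrier, fell (log2 fold change −0.61). The proton-coupled folate transporter SLC46A1 was called as higher (0.27), a call lost with the effective length offset (adjusted p = 0.41) and with limma on log2(TPM + 1) (adjusted p = 0.183). BHMT, the other homocysteine methyltransferase, was too low to test (0.149 CPM in controls and 0.0520 CPM with hMGL), and BHMT2 was at 0.328 and 0.353 CPM and did not pass.

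Of 13 tested genes of cobalamin uptake and handling, 4 rose, 5 fell and 4 did not pass (background 69.4% called). CD320, the receptor that takes up transcobalamin-bound cobalamin, fell from 68.8 ± 1.63 to 46.5 ± 1.68 CPM (SD, n = 3 each; log2 fold change −0.56, adjusted p = 3.04e-10, edgeR). MMAB and ABCD4, which act in the mitochondrial and lysosomal handling of cobalamin, fell by 0.39 and 0.33 on the log2 scale, and MMAA, the chaperone of MMUT, rose by 0.88. The call of MMAB was lost with the effective length offset and with limma on TPM, and ABCD4 was at a log2 fold change of 0.10 when protein-coding transcripts alone were summed. CUBN, an endocytic receptor, went from 2.81 to 7.96 CPM, a rise of 1.503 on the log2 scale, and the exporter ABCC1 rose by 0.24 on that scale. Of the factors known to act on MMACHC, ZNF143 rose from 25.1 to 39.1 CPM (log2 fold change 0.64) and THAP11 from 36.05 to 52.2 CPM (0.53), while HCFC1 went from 354.6 to 312.2 CPM (−0.18, adjusted p = 6.07e-06, edgeR), a call that limma on log2(TPM + 1) did not make. ATF4 rose by 0.59 and MYC by 2.62 on the log2 scale.

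Adenosine, the other product of AHCY, is removed by ADK and ADA and carried by nucleoside transporters. Of 8 genes that remove, carry or make adenosine or act on AMP, 2 rose, 4 fell and 2 did not pass (background 69.4% called). ADA, the deaminase, fell from 7.41 ± 0.582 to 2.42 ± 0.335 CPM (SD, n = 3 each; log2 fold change −1.62, adjusted p = 7.77e-10, edgeR). The equilibrative transporter SLC29A1 and the AMP deaminase AMPD2 fell (log2 fold changes −0.84 and −0.54), whereas AMPD3, a relative of AMPD2, rose (1.17). NT5E, the ecto-enzyme that makes adenosine outside the cell, rose by 0.68 on the log2 scale. ADK, the kinase, was at 19.8 and 17.3 CPM (log2 fold change −0.20, adjusted p = 0.0138, edgeR), but the sign was positive with limma on log2(TPM + 1), at 0.03.

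Of 10 known partners of AHCYL1 and AHCYL2, 2 rose, 5 fell and 3 did not pass (background 69.4% called). The IP3 receptors differed: ITPR2 fell from 68.3 ± 1.38 to 34.3 ± 1.02 CPM (SD, n = 3 each; log2 fold change −0.99, adjusted p = 1.04e-13, edgeR), ITPR1 rose by 0.27 on the log2 scale, and ITPR3, the most abundant by CPM, did not pass (186.7 and 182.0 CPM, adjusted p = 0.286). RRM1 and RRM2, the subunits of ribonucleotide reductase that AHCYL1 is known to bind, both fell (log2 fold changes −1.60 and −1.497). CPSF4, of the polyadenylation machinery, rose by 0.68 on the log2 scale, whereas FIP1L1, of the same machinery, fell from 151.8 to 124.4 CPM (log2 fold change −0.29).

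The gene most like each member was sought by Pearson's r of log2 CPM over the 6 libraries, among 9940 genes with a symbol and a mean of at least 10 CPM. With 2 groups of 3 such an r is set mainly by the difference between groups and is given as a description. The nearest genes were MPST for MTR, COA7 for MTRR, SLC12A9 for MMADHC, RPL26 for AHCY and PMF1 for AHCYL1, but between 3396 and 3722 genes reached an r of 0.95 with each of these 5. MMACHC was nearest to ATP6V0C (r = 0.987), with 36 genes at 0.95 or more, and AHCYL2 to ABHD2 (r = 0.948), with none.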

How the data were processed

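RNA-seq of 3 untreated and 3 hMGL-treated A375 cultures was analysed from 1 deposited table per library. The authors quantified reads with kallisto 0.45.0, per the submitters' processing notes, which also name DESeq2 1.30.0. The deposited tables give estimated counts and TPM per transcript, with lengths and effective lengths; index release and strandedness are not given in the sources used here. Transcript IDs were matched to GENCODE 29, of 244939 listed 203436. Estimated counts were summed per gene and rounded. Genes were tested with edgeR 4.0.16 (TMM, filterByExpr with a minimum count of 10 and total of 15, robust glmQLFit, two-sided quasi-likelihood F test, Benjamini-Hochberg). Transcripts were tested the same way, and usage with diffSpliceDGE; on simulated data diffSpliceDGE called more unchanged isoforms than its threshold allows, so limma 3.58.1 on log2 odds (pseudocount 0.5) was added after seeing the data. SE is the log2 fold change over the root of F, and intervals use the t distribution of the moderated degrees of freedom. Shares and ratios were tested by exact permutation. Alternatives were library totals, DESeq2 1.42.0, other filters, TPM with pseudocounts 1 and 0.1, a length offset, protein-coding transcripts only, a minimum change of 1.5-fold and each library left out. Text names all 7 genes, isoforms with at least 10% of their gene's TPM, up to 3 genes per list and direction with the lowest adjusted p plus CD320, MMUT, ADK, HCFC1, ITPR3, ATF4, ZNF143, THAP11 and MYC, and the nearest gene by r. BHMT, BHMT2, FIP1L1, the overlapping and marker genes, minor isoforms and list genes shown only in a figure were named outside this rule. Some list genes that this rule names and some sequence are not reported here, although counts over the lists include all their genes. The genes and lists were chosen with earlier results of these data known.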

Additional observations from a re-analysis of the deposited data

How the results depend on the processing

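Across 15 alternatives per gene, MTR, AHCY and AHCYL1 stayed lower and MTRR higher past the threshold in every one, and AHCYL2 passed in none. MMACHC lost its call with library totals (log2 fold change −0.052), DESeq2 (−0.10), no filter on low counts (−0.11), limma on log2(TPM + 1) (−0.024) or log2(TPM + 0.1) (−0.028), the length offset (−0.13), protein-coding transcripts only (−0.10) and a minimum change of 1.5-fold (−0.13); leaving out 1 library gave −0.16 to −0.070, with the call lost for 4 of the 6. The cause was not tested. With the 1.5-fold minimum MMADHC (−0.38) was not called, 3 of the 7 genes were lower, and 4223 of all genes were higher and 3764 lower, since that test asks for larger changes. The same minimum left 2 genes higher and 1 lower for cobalamin handling, 0 higher and 0 lower for the MMACHC factors, 2 lower for adenosine and 1 higher for the AHCYL1 partners. For cobalamin handling 3 were lower with limma on log2(TPM + 1), 2 on log2(TPM + 0.1) and 3 with protein-coding transcripts only; of the MMACHC factors 0 were lower with either limma fit. ABCD4 turned to 0.10 with protein-coding transcripts only, and ADK to 0.032 and 0.035 with limma at pseudocounts 1 and 0.1. limma on log2 odds called 5 of the 39 isoforms in usage, where it called 12.5% of all transcripts. diffSpliceDGE called 3 of the 39, where it called 3.28% of all transcripts, and MTR-201 and MTR-202 were called by both. From counts in place of TPM the change in log2 ratio was −2.02 for MTR to MTRR, 0.21 for AHCYL1 to AHCY and 0.90 for AHCYL2 to AHCY. No paired analysis was possible because the groups share no replicate numbers (1 to 3 and 4 to 6). AHCYL2 was the gene with the fewest counts of the 7, at 507.4 to 625.2 estimated counts per library.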
